A study of Homo sapiens with 18 samples.

Results

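The AP-1 and immediate early genes are *JUN*, *JUNB*, *JUND*, *FOS*, *FOSB*, *FOSL1*, *FOSL2*, *ATF3*, *EGR1* and *IER2*. They were taken by symbol from the deposited table, which listed all 10 of them among 21944 genes. Each one was listed for all 3 times after reseeding (3, 6 and 24 h), which gave 30 rows. The study reseeded human pancreatic progenitors, derived from embryonic stem cells and harvested with Accutase at day 19 of differentiation, on plates coated with fibronectin (FN) or with laminin-411 (LN411), and collected them for bulk RNA sequencing. There were 6 groups of 3 samples, FN or LN411 at each time, and 18 samples in all. The cells came from the NGN3-GFP reporter line, derived from SA121, in the paper and in the growth protocol of the labels, while another field of the labels names HUES4. The comparison that this design implies is LN411 against FN at each time. It is not made here, because the values used are 1 number per gene, the authors' mean normalized count over all samples, which merges both matrices and all 3 times. Values of single samples were not analysed here, so the levels below carry no error between replicates and no test, and the order of neighbouring genes is a description.

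AP-1 is a family of dimeric transcription factors built from basic leucine zipper proteins. JUN proteins pair with one another or with FOS proteins, whereas FOS proteins need a JUN partner to bind DNA well, and ATF3 can join JUN proteins on related sites. Immediate early genes are those whose transcription starts without new protein synthesis after a growth factor, stress or mechanical signal, often through serum response factor and its partners. In epithelial cells these factors are known for linking such signals to adhesion, proliferation and wound repair.

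The proteins that form AP-1 share the part that touches DNA, and its coding sequence is shown to let the relatives be set side by side. A scan of the reading frames found the conserved stretch of the basic region, 9 codons that begin with asparagine and end with arginine, exactly once in the 8 bZIP members and not in *EGR1*, a zinc finger factor, or *IER2*, an early response gene of another kind. The sequences are from the canonical GENCODE transcripts and run 5′ to 3′. Capitals mark the positions at which the 8 genes do not all have the same base.
JUN: aaCCGCAtCgcTgcCTcCaaGtgcCgA
JUNB: aaCCGGCtGgcGgcCAcCaaGtgcCgG
JUND: aaCCGCAtCgcCgcCTcCaaGtgcCgC
FOS: aaTAAGAtGgcTgcAGcCaaAtgcCgC
FOSB: aaTAAACtAgcAgcAGcTaaAtgcAgG
FOSL1: aaCAAGCtGgcTgcGGcCaaGtgcAgG
FOSL2: aaCAAGCtGgcTgcAGcCaaGtgcCgG
ATF3: aaTAAGAtTgcAgcTGcAaaGtgcCgA

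Of the 27 bases, 14 were the same in all 8 genes. *JUN* and *JUND* shared 25 bases, as did *FOSL1* and *FOSL2*, whereas *JUN* and *FOSB* shared 14. Exact sharing of longer stretches, which bears on reads that could fit more than 1 gene, was counted separately. No 75-base window of the canonical *JUN*, *JUND*, *FOS*, *FOSB*, *FOSL1*, *FOSL2*, *ATF3* or *EGR1* transcript occurred in a transcript of another gene on either strand, with 1628 windows examined for *FOSL1* and up to 6639 for *FOSL2*. *JUNB* and *IER2* shared windows with genes that overlap them on the opposite strand. Of the *JUNB* windows 10.5% also lay in transcripts of *HOOK2*, a neighbour on the opposite strand whose exons cover 259 bases of *JUNB*. For *IER2*, 39.3% of windows were found in an antisense long non-coding RNA, ENSG00000267598, and a further one, ENSG00000287296, shares 662 bases with exons of *IER2* outside the canonical transcript. The paper does not itself describe the libraries as stranded or unstranded, but the catalogue number it lists for the NEBNext Ultra II RNA library kit is, as background, that of the version that does not mark the strand. With such libraries, reads of *JUNB* and *IER2* cannot be told apart from those of these neighbours where they overlap, and both levels are uncertain.

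In GENCODE on GRCh38, 4 of the members lie on chromosome 19. *JUNB* spans 12791486 to 12793315, *IER2* 13150411 to 13154911, *JUND* 18279694 to 18281622 and *FOSB* 45467995 to 45475179. *JUN* (chromosome 1, 58776845 to 58784048), *JUNB* and *JUND* have a canonical transcript of 1 exon. The genes of the FOS family have 4 exons each, namely *FOS* (chromosome 14, 75278826 to 75282230), *FOSB*, *FOSL1* (chromosome 11, 65892049 to 65900573) and *FOSL2* (chromosome 2, 28392448 to 28417317). *ATF3* (chromosome 1, 212565334 to 212620777) also has 4, while *EGR1* (chromosome 5, 138465479 to 138469303) and *IER2* have 2. The union of exons runs from 1830 bases in *JUNB* to 7162 in *FOSL2*. This range matters for the levels, since a long transcript gives more reads per molecule.

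The JUN genes encode the partners that every AP-1 dimer with a FOS protein requires. *JUND* (ENSG00000130522), which in many cells is expressed without stimulation, had a mean normalized count of 6112. Divided by its exon length this was 3169 per kb, the highest level of the 10 genes, and above 97.4% of all genes with a length. *JUN* (ENSG00000177606), the founding member and a target of JNK kinases, had a mean normalized count of 7492 and 2067 per kb, above 95.7% of genes. The level of *JUNB* (ENSG00000171223), which often restrains the activity of JUN, was lower, with a mean normalized count of 910 and 497 per kb. Per kb, *JUND* made up 55.3% of the summed level of the JUN family, *JUN* 36.1% and *JUNB* 8.67%. Without the length correction, *JUN* came first with 51.6% and *JUND* second with 42.1%.

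Within the FOS family the levels were less even. *FOSL2* (ENSG00000075426), which encodes FRA2 and lacks the strong activation domain of FOS, had the highest mean normalized count of all members, 16635, and 2323 per kb. It stood above 96.3% of genes and made up 62.0% of the summed level of the family per kb. *FOS* (ENSG00000170345), the classic serum response gene, had a mean normalized count of 3168 and 994 per kb, and *FOSB* (ENSG00000125740), a close relative with a known short splice form, 2142 and 386 per kb. The level of *FOSL2* per kb was 2.34 times that of *FOS* and 6.02 times that of *FOSB*. These folds depend on the length used. With the longest transcript the levels lay closer together, at 2478 per kb for *FOSL2*, 1506 for *FOS* and 567 for *FOSB*. Without length correction, the mean normalized counts above lay further apart. *FOSL1* (ENSG00000175592), which encodes FRA1, was the lowest of the 10 with a mean normalized count of 77.3 and 40.9 per kb. It was the only member below the median gene, at the 41.6th percentile. *FOSL2* lay 56.7 times higher per kb, and 215 times higher without length correction. *FOSL1* therefore contributed 1.09% of the family's level per kb, and its mean rests on the fewest reads.

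**Figure D1:**
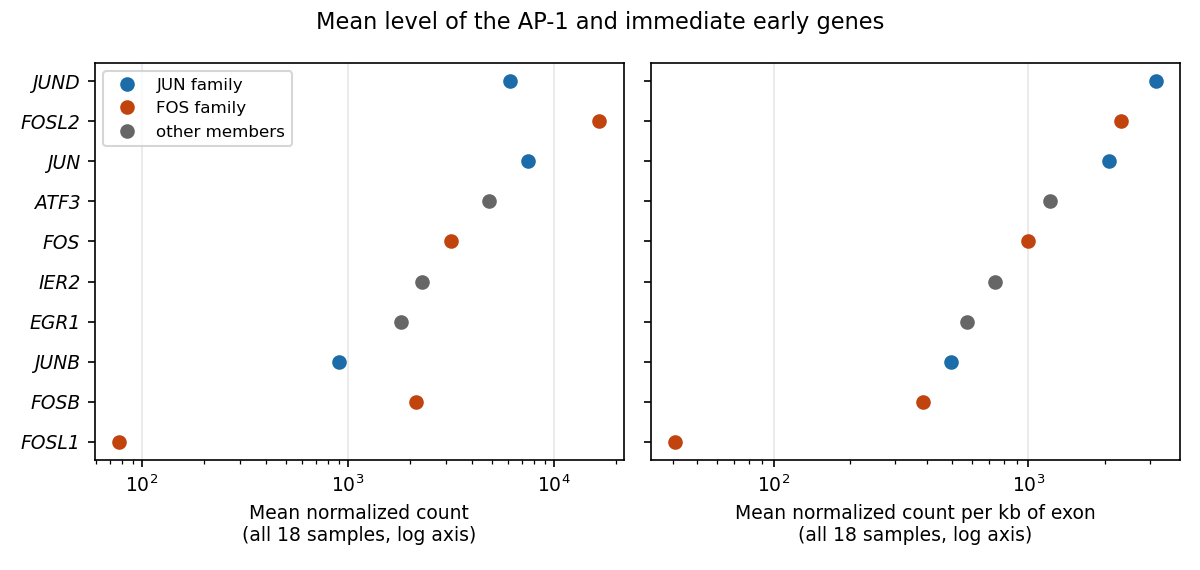
Mean normalized count of each member over all 18 samples (left) and the same value per kb of exon (right), both on log axes, with 1 point per gene coloured by family and no error bar, since the value is a single mean. *FOSL2* leads on the left with 16635 and *JUND* on the right with 3169 per kb, and *FOSL1* is lowest on both.

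Summed per kb, the JUN family came to 5733 and the FOS family to 3744, a ratio of FOS to JUN genes of 0.653. Without *FOSL2* this ratio was 0.248. The ratio depends on the length correction, as it was 0.770 with the longest transcript as the length and 1.52 with none, where the long *FOSL2* transcript weighs most. In each of these settings *FOSL2* held at least 53.9% of its family's level and *FOSL1* the smallest share.

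**Figure D2:**
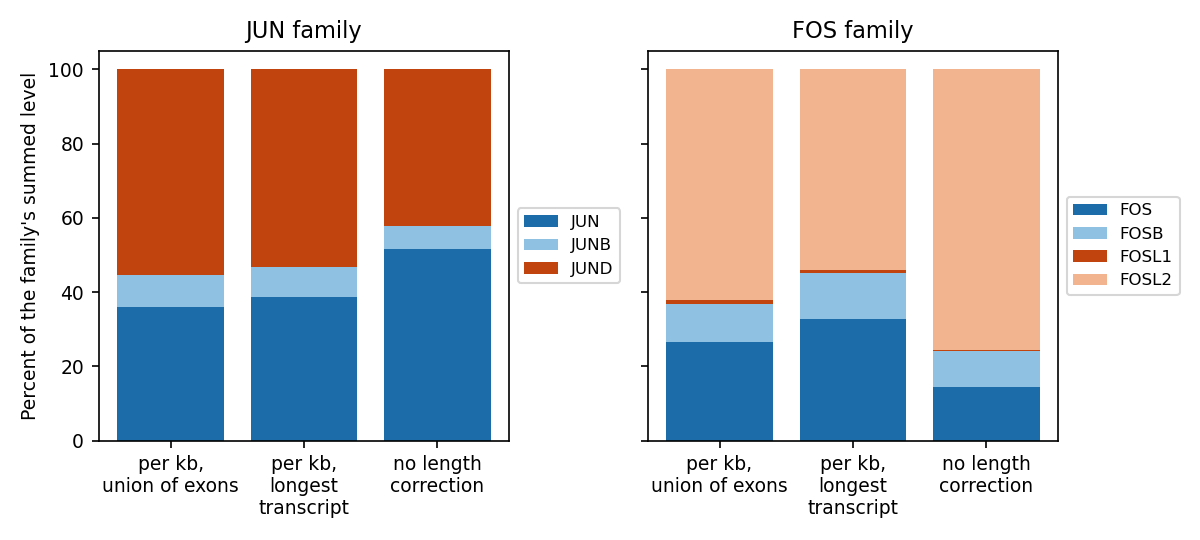
Percent of the summed mean level that each gene contributes to the JUN family (left) and the FOS family (right), with levels per kb of the union of exons, per kb of the longest transcript, or without length correction. *FOSL2* makes up 62.0%, 53.9% and 75.5% of the FOS family in these settings, and *JUND* 55.3%, 53.1% and 42.1% of the JUN family.

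The members outside both families had middling to high levels. *ATF3* (ENSG00000162772), a stress-induced bZIP factor that mostly represses, had a mean normalized count of 4865 and 1217 per kb, above 92.0% of genes. For *IER2* (ENSG00000160888), a nuclear protein induced early by growth factors, the values were 2281 and 741 per kb. *EGR1* (ENSG00000120738), a zinc finger factor that binds GC-rich sites, had 1807 and 576 per kb. The length of *ATF3* is the least certain of these, because its exons add up to 3998 bases while its longest transcript has 2103. With the latter, its level was 2313 per kb and it moved ahead of *JUN* (2300.3) to the third place.

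Among all 21861 genes with a length, 9 of the 10 members lay above the median of 76.2 per kb. Of these, *JUND*, *FOSL2*, *JUN* and *ATF3* lay above the 90th percentile. The median of the members was 868 per kb, at the 88.3rd percentile. All 10 are protein-coding, a class with a higher median of 194 per kb. Among the 15355 protein-coding genes *JUND* stood at the 96.5th percentile, *FOSL2* at the 94.8th and *JUN* at the 94.1st. There *ATF3* fell below the 90th percentile, at the 88.9th, and *FOSL1* stood at the 26.8th.

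**Figure D3:**
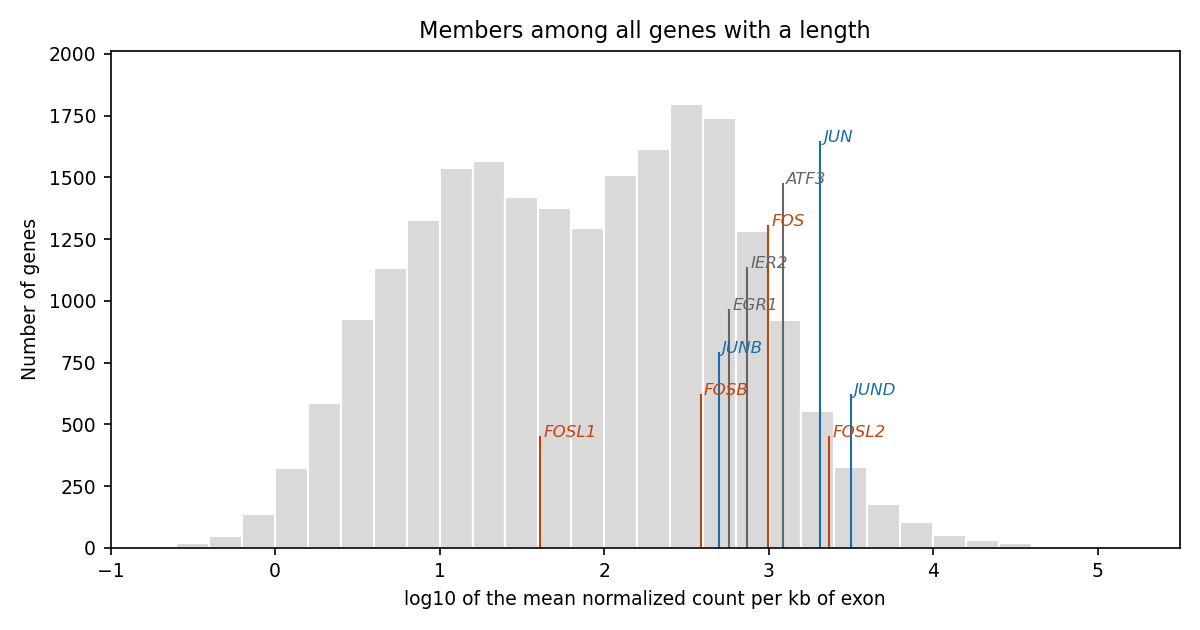
Number of genes (grey bars) by log10 of the mean normalized count per kb of exon, with a vertical line at each member, coloured by family (the height of a line has no meaning). *FOSL1* lies below the median gene of 76.2 per kb and the other members above it, up to 3169 for *JUND*.

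Genes around AP-1 were described in the same way from 3 lists. All 17 other bZIP genes that can pair with AP-1 proteins or bind like sites were listed, with a median of 315 per kb. They ran from *ATF4*, a factor of the integrated stress response, with 5385 per kb and *NFE2L1* with 2656 down to *BATF3* with 9.69 and *BATF2* with 2.79. *ATF4* and *NFE2L1* were the ones above *FOSL2*. Of 29 other immediate early genes 28 were listed, with a median of 621 per kb, and 6 of them lay above *FOSL2*. The highest were *DUSP5*, a phosphatase that inactivates ERK, with 24655 per kb and *ZFP36L2*, which destabilizes mRNAs, with 5373. The lowest were *DUSP2* with 26.1 and *EGR2*, a relative of *EGR1*, with 7.27. The 17 kinases and factors upstream of the members had a median of 376 per kb and none reached *FOSL2*. Among them *RPS6KA3*, a kinase of the ribosomal S6 kinase family, had 945 per kb, and the lowest were *ELK3* with 76.4 and *MAPK10* with 7.09.

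**Figure D4:**
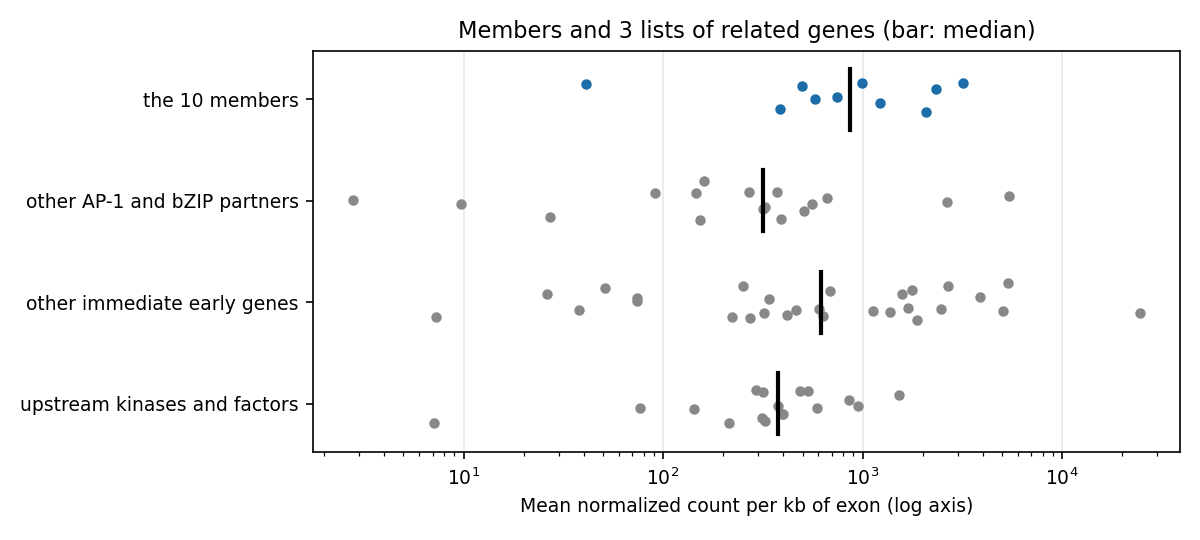
Mean normalized count per kb of exon on a log axis for the 10 members and 3 lists of related genes, 1 point per gene and a bar at each median; points are spread vertically for legibility alone. The medians are 868 for the members, 315 for other bZIP partners, 621 for other immediate early genes and 376 for upstream kinases and factors.

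The labelled cell type was set against its markers on the same scale. Of 10 markers of pancreatic progenitors, 9 lay above the median gene, with *GP2* the highest at 33603 per kb, while *PTF1A*, which is also an acinar factor, had 7.64. Markers of other lineages were in the mean as well. The 4 endocrine markers ran from 6.87 per kb (*GCG*) to 1426 (*CHGA*), the 3 acinar ones from 36.2 (*CPA1*) to 1290 (*PRSS1*), those of liver were 187 (*ALB*) and 4232 (*APOA2*), and those of gut 1011 (*CDX2*) and 2929 (*VIL1*). Of the 3 pluripotent markers, *LIN28A* had 2599 per kb, while *POU5F1* and *NANOG* were without a value here, as was the blood marker *PTPRC*. The mesenchymal markers ran from 15.9 (*PDGFRB*) to 454 (*COL1A1*), and the endothelial ones were 9.69 (*PECAM1*) and 0.851 (*CDH5*). In bulk RNA, a member's level in few cells cannot be told apart from a lower level in many, and which cells held these transcripts was not tested.

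Promoters are shown because several members are known to be targets of AP-1, CREB and serum response factor. RefSeq promoters of 300 bases on GRCh38.p14, from 250 before to 50 after the start site, were found for 9 members, 10 promoters in all with a pair for *ATF3*. Both strands were searched for the AP-1 site TGANTCA, for the longer site TGANNTCA, which includes the cyclic AMP response element, and for the CArG box bound by serum response factor. The 2 spelled motifs cannot start at the same base. Capitals mark the matches. Each stretch starts 10 bases before its first match and ends at the base before the start site, apart from that of *FOSL2*, whose match lies just after it.
JUN, chr1:58784048-58784124, minus strand: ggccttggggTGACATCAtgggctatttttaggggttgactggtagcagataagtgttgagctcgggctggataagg
JUND, chr19:18281623-18281832, minus strand: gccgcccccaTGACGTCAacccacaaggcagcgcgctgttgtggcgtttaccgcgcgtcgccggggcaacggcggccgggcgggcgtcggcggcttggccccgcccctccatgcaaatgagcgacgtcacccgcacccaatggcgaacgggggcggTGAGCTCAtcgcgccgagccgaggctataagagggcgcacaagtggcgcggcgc
ATF3, chr1:212565274-212565406, plus strand: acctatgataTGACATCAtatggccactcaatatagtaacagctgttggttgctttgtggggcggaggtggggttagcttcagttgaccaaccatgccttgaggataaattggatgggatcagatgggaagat
EGR1, chr5:138465364-138465478, plus strand: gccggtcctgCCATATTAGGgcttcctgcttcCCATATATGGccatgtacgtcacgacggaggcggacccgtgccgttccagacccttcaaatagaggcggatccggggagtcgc
FOSL2, chr2:28392839-28392868, plus strand: gagttgaactcgtgccattgtagTGACTCA

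Distances refer to the RefSeq start sites, which for *ATF3* and *FOSL2* lie inside the GENCODE spans given above. *JUN* carried TGACATCA, which begins 67 bases before the start site. The promoter at the first RefSeq start site of *ATF3* carried the same letters 123 bases before it. *JUND* had TGACGTCA 200 bases and TGAGCTCA 54 bases before its start. This longer site was in 3 of the 10 member promoters and in 11.5% of all 35116 promoters. *EGR1* had a pair of CArG boxes, CCATATTAGG and CCATATATGG, which begin 105 and 83 bases before the start, and 1.29% of all promoters hold such a box. Among the 9 members searched, which leave out *FOSL1*, the shorter site was found in *FOSL2* alone, as TGACTCA, in a window where 7.71% of all promoters have one. No such letters were found in the windows of *FOS*, *FOSB*, *JUNB*, *IER2* or the second *ATF3* start. Sequence outside these windows, including that further upstream, was not searched. The absence of a match therefore cannot show that these genes, *FOS* among them, lack a CArG box or the other sites.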

How the data were processed

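The authors sequenced poly(A) RNA of 18 samples. They used STAR (2.7.2d in the submitters' processing notes) for alignment to GRCh38 and for gene counts, and DESeq2 (1.34.0) for normalization and comparisons. The signal read here is the deposited mean normalized count, for which the authors divided counts by size factors and took 1 mean of all libraries. It was the same in each row of a gene, with a largest relative gap of 4.89e-07, and sums to 53217583 over the genes listed. The depth of single libraries is unknown. A further 5 columns hold the authors' own comparisons of LN411 with FN (log2 fold changes, their errors, test statistics and p-values) and were not used. The count model planned for values per sample therefore gave way to a description without tests.

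The mean was divided by the union of exons of GENCODE v44, found by Ensembl identifier for 99.6% of genes. The authors used an older GENCODE release. Alternatives were the longest transcript, no length correction, genes with a mean of at least 10 and a stricter AP-1 site. Named genes were the members, the highest and lowest 2 genes of each of the 3 related lists, and the highest and lowest of each marker list. A few of these genes are left out of the text. *EGR4*, *POU5F1*, *NANOG* and *PTPRC* are on these lists but had no value here. The members and lists were chosen with earlier results of these data known. The motif code was tested on sites planted in simulated sequences of G and C, a test that cannot show false matches. The length code was tested on a made-up set of exons. Calculations used Python 3.11.15 and pandas 2.3.3.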

Additional observations from a re-analysis of the deposited data

How the results depend on the processing

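The number of members above the median gene was 9 with the longest transcript, without length correction and among genes with a mean of at least 10, as in the main setting. Above the 90th percentile there were 5, 3 and 4 members in these settings, against 4. The ratio of the FOS family to the JUN family was 0.653 per kb of all exons, 0.770 with the longest transcript and 1.52 without length correction, where its direction turned because *FOSL2* has the longest exons of the members. In the order of the members, 4 places changed with the longest transcript and 6 without length correction, while *FOS* kept the fifth, *IER2* the sixth and *FOSL1* the tenth place in both. With the stricter AP-1 site, TGAGTCA on either strand, *FOSL2* was again the member with a match, and the share of all promoters fell from 7.71% to 4.95%.

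No paired analysis was possible because the values used are means over all samples. For the same reason the planned count models, their normalizations and filters, and fits without single samples were not run. A single mean sets no error, so that differences between neighbours in the order, such as *FOSL2* and *JUN*, carry no test.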
